A study of Mus musculus with 16 samples.

Results

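The odorant receptor genes described here are the 141 with an Olfr symbol whose array probes were assigned to chromosomes 1, 3, 4, 6, 8, 13, 14, 15 and X. They are 141 of the 1080 odorant receptor genes measured and of the 19505 genes tested. They were chosen by chromosome and by symbol, without use of their levels. Another 9 receptors of these chromosomes were left out by name, namely Olfr16, Olfr372, Olfr452 and Olfr1507 to Olfr1512. Chromosome 14 held 33 of the 141, chromosomes 1 and 6 held 26 each, chromosome 4 held 23, chromosome 13 held 12, chromosome 15 held 9, chromosome X held 6, chromosome 8 held 4 and chromosome 3 held 2.

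Odorant receptors are G protein-coupled receptors in the cilia of olfactory sensory neurons. Each mature neuron transcribes 1 allele of 1 receptor gene, so the level of a receptor's mRNA in a sample follows both the number of neurons that chose that gene and the mRNA each of them holds. These receptors belong to class II, the larger class in mammals. The genes lie in tandem clusters on many chromosomes, and enhancers within the clusters, bound by the transcription factors Lhx2 and Ebf and the adaptor Ldb1, take part in the choice of a gene. Odor binding activates the G protein subunit Gnal, adenylyl cyclase Adcy3 and a cyclic nucleotide-gated channel. Activity raises the transcription of S100a5, which encodes a calcium-binding protein.

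All samples came from S100a5-tauGFP mice, in which the S100a5 promoter drives a green fluorescent protein (GFP) in sensory neurons, so that sorting for GFP selects neurons by their recent activity. The odor arm comprised 4 pools of 3 mice given intermittent pulses of an odorant that the labels name indole/ionone, and the vehicle arm 4 pools of 3 mice given pulses of filtered air. The mice were of both sexes and 7 to 12 weeks old, and every mouse, vehicle mice included, carried the reporter and was kept alone in a clean-air chamber for 40 h with the pulses starting after 26 h. The olfactory mucosa of each pool was dissociated and sorted, giving 1 GFP+ and 1 GFP- sample per pool and 16 Clariom S arrays. Which ionone was used, at what dose, and whether indole and ionone were mixed is not stated in the labels. A pool of 3 mice is the replicate, so p-values measure the spread between such pools, and the number of arrays limits the precision. The GFP signal reports the activity of a neuron, not which odor caused it.

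The deposited values are taken as log2 levels, so a difference of 1 is a 2-fold difference. Levels of different genes come from different probes and are not set against each other. Across all probes the correlation was 0.974 to 0.987 between arrays of a group and 0.946 to 0.965 between fractions. The GFP- sample of odor replicate 3 lay apart from the rest, at 90.4 on the second principal component against -33.6 to 27.6 in the other arrays. It held the lowest level of its group for 76 of the 141 receptors, against 7 to 32 for the other GFP- samples of the odor pools, and the GFP- sample of vehicle replicate 1 did so for 68. The background of each array was read from 23 probes of sequences absent from the genome, whose median was 5.63 to 6.05 on the log2 scale. The mean level lay under this background for 23 of the 141 receptors in GFP+ cells of odor pools, 21 in GFP- cells of odor pools, 21 in GFP+ cells of vehicle pools and 23 in GFP- cells of vehicle pools. For 13 receptors it lay under background in all 4 groups.

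In the gene order of the RefSeq table, the 141 receptors fell into 27 clusters, defined as runs with fewer than 20 genes other than receptors between neighbours. Of these, 13 had 3 or more members, and they held 123 of the 141 receptors. The clusters with the most members were Olfr722 to Olfr749 on chromosome 14 with 27, Olfr458 to Olfr47 on chromosome 6 with 18, and Olfr433 to Olfr220 on chromosome 1 and Olfr62 to Olfr1328 on chromosome 4 with 13 each.

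The promoter window around the annotated start, from 250 bases before it to 50 after it, was given in the RefSeq table (GRCm38.p6) for 123 of the 141 receptors. At 83 of these the annotated start is the start codon itself, so the true transcription start is not annotated there and the window may not cover it. Windows of 2 pairs of neighbouring genes are shown, since the first pair differed in direction between GFP+ and GFP- cells and the second moved the same way. They were chosen after their values were seen, among genes whose annotated start is not an ATG. Capitals mark exact matches, on either strand, of TAATGA, a homeodomain-type motif, or of CCCNNGGG, an Olf/Ebf-type motif. TAATTA was searched as well, and matches of these motifs can share bases with each other. All 4 windows read 5′ to 3′ on the minus strand. Olfr724 is at chr14:49961047-49961346, its neighbour Olfr725 at chr14:50035451-50035750, Olfr288 at chr15:98195493-98195792 and its neighbour Olfr287 at chr15:98221007-98221306.
Olfr724: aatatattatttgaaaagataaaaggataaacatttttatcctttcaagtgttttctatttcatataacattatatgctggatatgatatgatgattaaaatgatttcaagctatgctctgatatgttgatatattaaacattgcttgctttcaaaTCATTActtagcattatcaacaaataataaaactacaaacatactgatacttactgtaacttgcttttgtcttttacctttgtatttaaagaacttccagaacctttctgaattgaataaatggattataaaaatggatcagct
Olfr725: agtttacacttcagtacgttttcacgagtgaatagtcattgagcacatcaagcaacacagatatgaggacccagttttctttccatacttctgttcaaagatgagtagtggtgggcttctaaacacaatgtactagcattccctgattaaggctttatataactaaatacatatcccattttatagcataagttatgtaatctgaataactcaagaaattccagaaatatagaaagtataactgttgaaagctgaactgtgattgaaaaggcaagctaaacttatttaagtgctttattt
Olfr288: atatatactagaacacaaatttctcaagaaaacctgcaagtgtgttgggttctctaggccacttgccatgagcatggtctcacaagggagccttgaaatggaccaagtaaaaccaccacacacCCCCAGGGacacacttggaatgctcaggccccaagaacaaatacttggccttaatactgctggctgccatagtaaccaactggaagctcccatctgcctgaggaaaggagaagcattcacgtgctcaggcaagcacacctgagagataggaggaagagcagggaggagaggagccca
Olfr287: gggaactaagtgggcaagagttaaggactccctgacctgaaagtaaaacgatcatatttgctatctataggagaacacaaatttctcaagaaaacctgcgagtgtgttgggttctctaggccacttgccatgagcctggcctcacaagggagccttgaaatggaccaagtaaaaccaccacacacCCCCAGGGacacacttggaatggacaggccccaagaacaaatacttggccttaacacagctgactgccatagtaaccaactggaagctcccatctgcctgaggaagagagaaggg
Olfr724 holds TAATGA, read here as TCATTA, 94 bases before the start, and Olfr725 holds none of the motifs in this window. Olfr288 and Olfr287 both hold CCCCAGGG, a match of CCCNNGGG, 127 and 65 bases before the start. The windows of Olfr288 and Olfr287 were identical at 63.0% of aligned positions with an unbroken shared run of 67 bases, against 51.2% and a run of 8 bases for Olfr724 and Olfr725. Over all windows, TAATTA was in 10.6% of the 123 receptor windows, 19.8% of windows of the other receptors and 5.31% of windows of all genes. TAATGA was in 23.6% of the 123 windows, 30.1% of windows of the other receptors and 9.99% of windows of all genes. CCCNNGGG was in 2.44% of the 123 windows, 3.01% of those of the other receptors and 13.4% of those of all genes. Among windows whose start is not an ATG, CCCNNGGG was in 7.5% of 40 member windows, 7.21% of those of the other receptors and 3531 of the 25200 of all genes. In these windows TAATGA was in 27.5% of member windows, 35.6% of those of the other receptors and 9.37% of those of all genes, and TAATTA in 4 of the 40 member windows, 20.2% of those of the other receptors and 4.81% of those of all genes. A match describes letters in the window only.

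To see which of these receptors were expressed by recently active neurons, GFP+ and GFP- cells of the same pool were compared, and the difference of their levels, GFP+ minus GFP-, is called enrichment. In odor pools 62 of the 141 receptors were higher in GFP+ cells and 32 were lower (limma, Benjamini-Hochberg adjusted p under 0.05 over all genes), against 7.96% and 10.6% of all genes tested. In vehicle pools 68 were higher and 34 lower, against 8.86% and 10.8% of all genes. The median difference over the 141 receptors, GFP+ minus GFP-, was 0.53 in odor pools and 0.53 in vehicle pools. Over all 1080 receptors the medians were 0.47 in odor and 0.40 in vehicle pools, and over all genes they were 0.115 in odor and 0.109 in vehicle pools. Of the receptors called in odor pools 66.0% were higher, and 71.0% with each array centred on its median, while of all genes called 42.9% were higher, and 78.5% with that centring. In vehicle pools these shares were 66.7% and 70.2% of the receptors and 45.1% and 67.6% of all genes. Among all receptors, 43.3% were higher and 23.0% lower in odor pools, close to the shares of 44.0% and 22.7% among the 141. The widest differences in odor pools were -7.40 and 4.23, and those in vehicle pools -7.02 and 4.24.

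Both arms gave the same call for most receptors. In both arms 60 of the 141 were higher in GFP+ cells, against 4.73% of all genes, and 29 were lower, against 9.26% of all genes. Of all 1080 receptors 429 were higher and 238 lower in both arms, and the counts by cluster below stand beside these. A further 10 were higher and 8 lower in 1 arm alone, 34 passed the test in neither arm, and 0 passed with opposite signs. Of the 60, 59 were higher in each of the 8 pools, and the 29 were lower in each of the 8 pools. In both arms the GFP- mean lay under background for 8 of the 60 and the GFP+ mean for 10 of the 29, which limits the size of those differences. Differences over 8-fold in both arms were found for 9 receptors on the higher side (6.38%, against 5.46% of all receptors and 0.313% of all genes) and 19 on the lower side (13.5%, against 10.3% of all receptors and 2.08% of all genes). Without odor replicate 3, whose GFP- sample lay apart, 56 receptors were higher and 29 lower in odor pools. In bulk samples of sorted cells, fewer neurons that chose a receptor and less of its mRNA per neuron cannot be told apart.

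Many markers of other cell types were lower in GFP+ cells, and their part in the receptor differences was not tested. Of 37 measured markers, from a list of 40, of immature neurons, basal, sustentacular, gland and blood cells, 26 were lower and 0 higher in both arms. Of all genes 9.26% were lower and 4.73% higher. The summed level of the 37 markers, as log2, was 17.11 to 17.27 in GFP+ and 18.78 to 19.80 in GFP- cells of odor pools, and 17 to 17.25 in GFP+ and 18.87 to 19.88 in GFP- cells of vehicle pools. The 6 neutrophil markers summed to 8.07 to 9.92 in GFP+ and 17.99 to 19.31 in GFP- cells of odor pools. For the 6 immature neuron markers the sums overlapped there, at 16.84 to 16.93 in GFP+ and 16.59 to 17.11 in GFP- cells, though 4 were lower in both arms. Of the 3 horizontal basal cell markers 0 were lower. Neurog1, Krt5, Krt14, Trp63 and Muc5b lay under background in all 4 groups. Of 9 mature neuron markers 1, Ano2, was higher and 0 were lower. The 9 had a summed level of 20.99 to 21.02 in GFP+ and 20.84 to 20.93 in GFP- cells of odor pools, and 21 to 21.02 in GFP+ and 20.52 to 20.98 in GFP- cells of vehicle pools. Stoml3 and Omp weigh heavily in this sum and lay near the top of the array's range, where a difference may not be measurable.

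**Figure D1:**
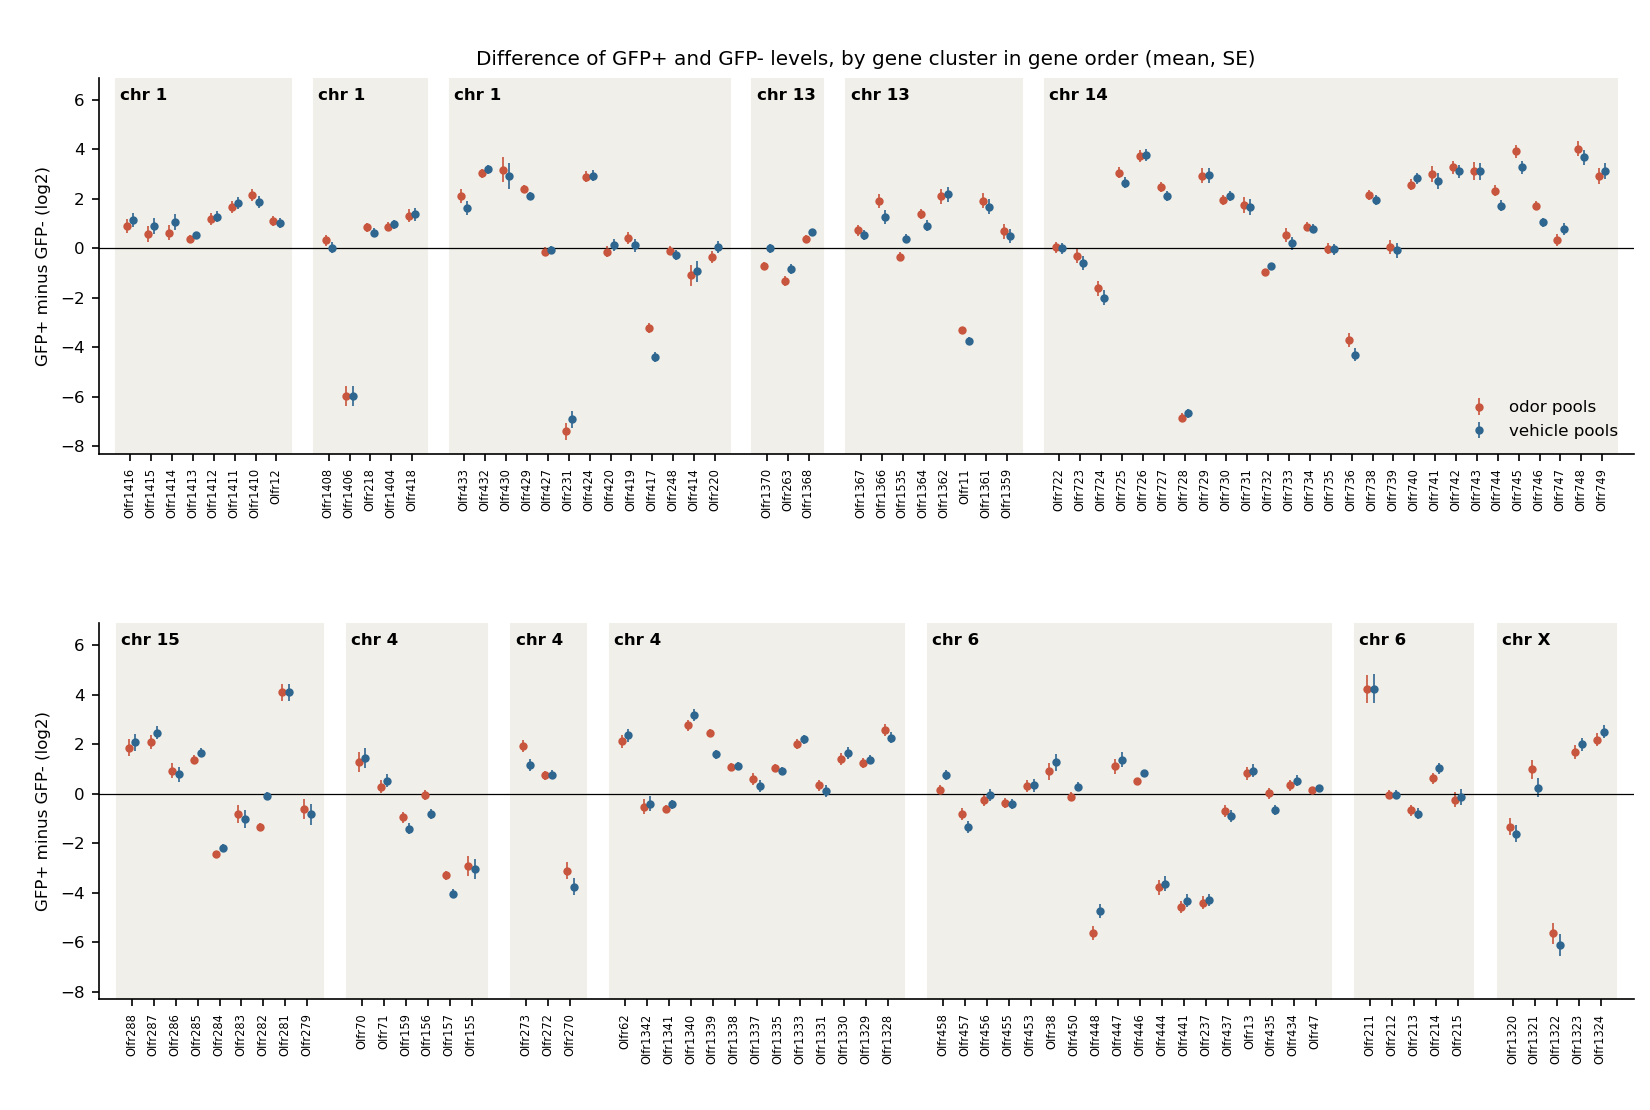
Difference of log2 level, GFP+ minus GFP- cells, of the 123 receptors in the 13 clusters of 3 or more, in gene order, with a shaded block per cluster. Points are means of 4 odor pools (red) or 4 vehicle pools (blue). Bars are SE from a moderated variance that both arms share. The values run from Olfr231 at -7.40 in odor pools to Olfr211 at 4.24 in vehicle pools.

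The cluster of 27 receptors on chromosome 14, Olfr722 to Olfr749, had a median difference of 2.03, and 17 of its members were higher and 4 lower in GFP+ cells in both arms. Of the 17, Olfr746 lay under background in all 4 groups, and with its levels set to background its differences were 0.08 in odor and -0.01 in vehicle pools. Olfr748 was at 8.98, 9.33, 9.67 and 9.86 in GFP+ cells of the 4 odor pools, against 5.49, 5.32, 5.65 and 5.27 in their GFP- cells. In vehicle pools it was at 9.46, 9.38, 7.87 and 9.01 in GFP+ cells, against 5.36, 4.84, 5.61 and 5.19 in GFP- cells. All GFP+ samples were above all GFP- samples in each arm, and the GFP- means lay under background. The difference was 4.03 ± 0.31 (SE, limma adjusted p = 2.05e-06) in odor pools and 3.68 ± 0.31 (adjusted p = 4.47e-06) in vehicle pools. Each SE of enrichment here comes from a moderated variance fitted over all 8 pools. It is therefore the same in both arms and does not show the spread of 1 arm's 4 pools. Since the GFP- levels are not above background, the differences are at least 3.65 in odor and 3.08 in vehicle pools, which are the values with levels under an array's background set to it.

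Olfr726 in the same cluster was at 13.94, 13.70, 13.74 and 13.17 in GFP+ cells and 10.32, 10.69, 9.28 and 9.33 in GFP- cells of odor pools. In vehicle pools it was at 13.92, 14.53, 15.01 and 14.13 in GFP+ cells and 9.61, 11.61, 10.81 and 10.50 in GFP- cells. The fractions did not overlap in either arm, and every level lay well above background, so the differences of 3.74 ± 0.25 in odor and 3.77 ± 0.25 in vehicle pools (adjusted p = 8.26e-07 in odor and 8.37e-07 in vehicle pools) are not limited by it. Olfr745 was higher by 3.92 ± 0.27 in odor pools and 3.28 ± 0.27 in vehicle pools (adjusted p = 1.07e-06 in odor and 4.75e-06 in vehicle pools).

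Olfr741, Olfr742 and Olfr743 follow each other in this cluster and moved together between pools. Olfr741 was at 15.66, 15.08, 15.01 and 14.90 in GFP+ cells and 12.71, 12.58, 10.75 and 12.50 in GFP- cells of odor pools, and at 14.71, 15.28, 16.77 and 15.67 in GFP+ cells and 12.58, 13.17, 13.07 and 12.69 in GFP- cells of vehicle pools. Olfr742 was at 10.84, 10.45, 10.45 and 10.32 in GFP+ cells and 7.61, 7.59, 6.16 and 7.57 in GFP- cells of odor pools, and at 10.47, 10.37, 12.41 and 11.04 in GFP+ cells and 7.26, 7.98, 8.46 and 8.10 in GFP- cells of vehicle pools. For both genes the GFP- sample of odor replicate 3 was the lowest of its group and the GFP+ sample of vehicle replicate 3 the highest of its group. The same held for Olfr743, at 6.48 in GFP- cells of odor replicate 3 and at 12.69 in GFP+ cells of vehicle replicate 3. Deviations from the group means over the 16 arrays correlated at 0.915 between Olfr741 and Olfr742, 0.911 between Olfr741 and Olfr743 and 0.833 between Olfr742 and Olfr743. The differences between fractions were 3.02 ± 0.32 in odor and 2.73 ± 0.32 in vehicle pools for Olfr741, 3.28 ± 0.27 in odor and 3.12 ± 0.27 in vehicle pools for Olfr742, and 3.14 ± 0.36 in odor and 3.11 ± 0.36 in vehicle pools for Olfr743, all past the threshold.

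Within the same run of genes, Olfr728 went the other way. It was at 6.22, 6.62, 5.28 and 6.18 in GFP+ cells of odor pools, near background, against 13.39, 13.22, 11.97 and 13.07 in their GFP- cells. In vehicle pools it was at 7.05, 5.84, 5.86 and 5.64 in GFP+ cells, against 13.06, 12.49, 12.68 and 12.84 in GFP- cells. No GFP+ sample came within 5 log2 units of a GFP- sample of the same arm. The difference was -6.84 ± 0.19 in odor pools and -6.67 ± 0.19 in vehicle pools (adjusted p = 1.37e-09 in odor and 1.58e-09 in vehicle pools), and -6.72 in odor and -6.61 in vehicle pools with levels under background set to it. Its neighbours on either side, Olfr727 and Olfr729, were higher in GFP+ cells, by 2.47 and 2.93 in odor pools and by 2.12 and 2.95 in vehicle pools. Olfr736 was lower in GFP+ cells as well, at -3.70 ± 0.27 in odor and -4.30 ± 0.27 in vehicle pools.

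Olfr724 and Olfr725, whose promoter windows are printed above, are adjacent in this cluster and went opposite ways. Olfr724 was at 8.84, 8.13, 8.70 and 8.08 in GFP+ cells and 9.96, 10.14, 9.54 and 10.57 in GFP- cells of odor pools, and its difference was -1.61 ± 0.31 there and -1.99 ± 0.31 in vehicle pools (adjusted p = 0.00296 in odor and 0.000638 in vehicle pools). Olfr725 was at 10.22, 10.57, 10.92 and 9.43 in GFP+ cells and 7.03, 8.31, 7.03 and 6.52 in GFP- cells of odor pools, and its difference was 3.06 ± 0.23 there and 2.66 ± 0.23 in vehicle pools (adjusted p = 1.99e-06 in odor and 6.47e-06 in vehicle pools). The fractions of both genes did not overlap in odor pools.

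Elsewhere on chromosome 14, Olfr720 was higher in GFP+ cells and Olfr750 lower. Olfr720 was at 12.41, 12.47, 11.67 and 11.38 in GFP+ cells and 9.68, 9.44, 7.48 and 7.88 in GFP- cells of odor pools, with differences of 3.36 ± 0.22 in odor pools and 3.69 ± 0.22 in vehicle pools. Olfr750 was at 5.01, 5.48, 5.43 and 4.81 in GFP+ cells, under background, and 10.02, 10.54, 9.25 and 10.77 in GFP- cells of odor pools, with differences of -4.96 ± 0.32 in odor and -4.57 ± 0.32 in vehicle pools, or -4.25 in odor and -3.89 in vehicle pools with levels under background set to it. Neither gene's fractions overlapped. Olfr1513 and Olfr221 lie beside the receptors Olfr1507 to Olfr1512, which were left out by name and belong to the cluster of the H enhancer. Olfr1513 differed by 0.88 ± 0.22 in odor and 0.89 ± 0.22 in vehicle pools, both past the threshold, and Olfr221 by -0.51 ± 0.48 in odor and -0.19 ± 0.48 in vehicle pools, neither past it.

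**Figure D2:**
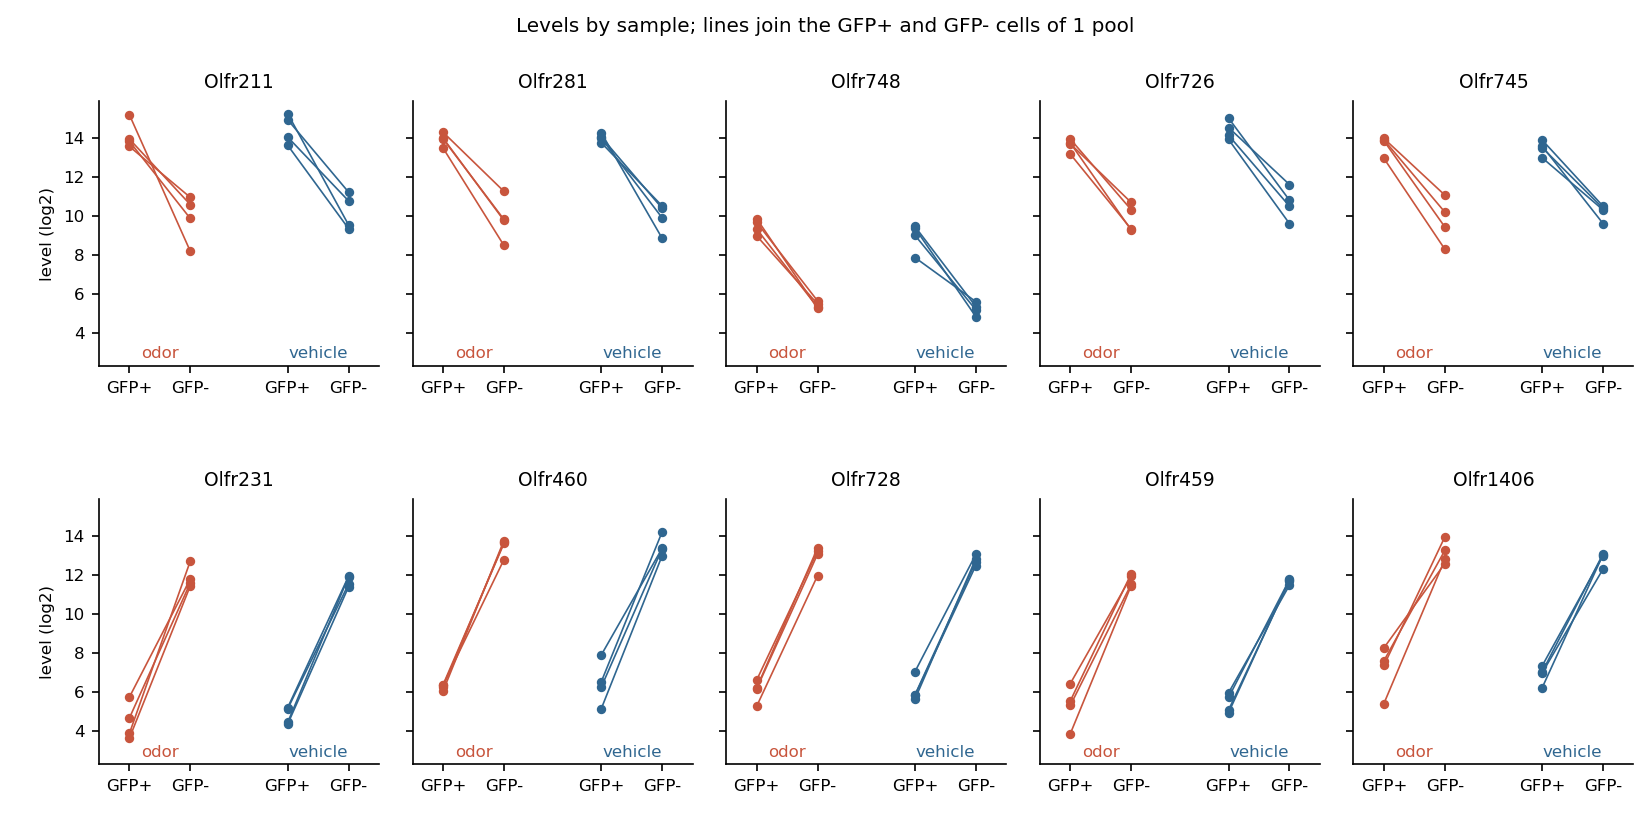
Log2 level per sample of 5 receptors higher and 5 lower in GFP+ cells, with odor pools in red and vehicle pools in blue, each point a sample and each line joining the GFP+ and GFP- samples of a pool. All lines of the upper row fall to the right and all lines of the lower row climb, for example between 5.28 to 6.62 in GFP+ and 11.97 to 13.39 in GFP- cells of odor pools for Olfr728.

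Chromosome 6 held more receptors lower in GFP+ cells than higher, with 8 lower and 4 higher in both arms among 26. Of all 1080 receptors 238 were lower and 429 higher, and of all genes 9.26% were lower and 4.73% higher. Chromosome 8 had 3 lower and 1 higher among 4, the 3 with Olfr371, which lay under background in all 4 groups. Chromosome 3 had 1 lower and 0 higher among 2. Olfr460 was at 6.28, 6.38, 6.06 and 6.36 in GFP+ cells of odor pools, against 13.67, 13.62, 13.77 and 12.79 in their GFP- cells. The levels in vehicle pools were 7.91, 5.16, 6.54 and 6.27 in GFP+ cells, against 13.38, 13, 14.22 and 13.36 in GFP- cells. The fractions were separated by more than 5 log2 units in each arm, and the differences were -7.19 ± 0.34 in odor and -7.02 ± 0.34 in vehicle pools (adjusted p = 4.36e-08 in odor and 5.37e-08 in vehicle pools). With levels under background set to it they were -7.19 in odor and -6.81 in vehicle pools. Its neighbour Olfr461 was lower too, at -5.51 ± 0.25 in odor and -5.93 ± 0.25 in vehicle pools, and so was Olfr459, which stands alone on the same chromosome, at -6.45 ± 0.30 in odor and -6.25 ± 0.30 in vehicle pools. Olfr461 lay at 3.83, 3.27, 3.72 and 3.16 in GFP+ cells of odor pools and at 2.94, 3.19, 3.58 and 3.38 in those of vehicle pools, far under background. With levels under background set to it, its differences came to -3.11 in odor and -3.36 in vehicle pools, and those of Olfr459 to -5.70 in odor and -5.85 in vehicle pools.

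In the cluster of 18 receptors from Olfr458 to Olfr47, also on chromosome 6, 5 receptors were lower and 3 higher in both arms, and the median was -0.04. Olfr448 was at 6.06, 6.41, 5.75 and 5.24 in GFP+ cells and 11.03, 11.93, 11.06 and 11.93 in GFP- cells of odor pools, and at 7.16, 6.80, 6.60 and 6.04 in GFP+ cells and 11.13, 11.83, 11.13 and 11.48 in GFP- cells of vehicle pools. All GFP+ samples were below all GFP- samples, and the differences were -5.62 ± 0.28 in odor and -4.74 ± 0.28 in vehicle pools (adjusted p = 7.37e-08 in odor and 2.84e-07 in vehicle pools), or -5.43 in odor pools with levels under background set to it. Olfr441, Olfr237 and Olfr444 were lower by 3.64 or more in each arm, with Olfr441 at -4.58 ± 0.26 in odor and -4.33 ± 0.26 in vehicle pools, Olfr237 at -4.40 in odor and -4.30 in vehicle pools, and Olfr444 at -3.79 in odor and -3.64 in vehicle pools. The highest in the cluster, Olfr447, was higher by 1.11 ± 0.31 in odor and 1.38 ± 0.31 in vehicle pools (adjusted p = 0.0276 in odor and 0.00831 in vehicle pools). Without odor replicate 3 its call in odor pools was lost, at an adjusted p of 0.128, and it was lost without odor replicate 2 or 4 as well, at 0.0689 and 0.0742. It was also lost without the pool as a block (limma, adjusted p = 0.0855).

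The remaining chromosome 6 cluster, Olfr211 to Olfr215, had 5 members and held the receptor with the highest mean difference of the 141. Olfr211 was at 13.94, 13.82, 15.18 and 13.56 in GFP+ cells of odor pools, against 10.58, 9.87, 8.19 and 10.95 in their GFP- cells. In vehicle pools it was at 13.62, 14.04, 15.24 and 14.93 in GFP+ cells, against 9.35, 10.77, 9.54 and 11.22 in GFP- cells. The differences were 4.23 ± 0.58 in odor and 4.24 ± 0.58 in vehicle pools (adjusted p = 0.000265 in odor and 0.000256 in vehicle pools). The differences of single pools spread widely, at 3.36, 3.95, 6.99 and 2.62 in odor pools and 4.27, 3.27, 5.70 and 3.71 in vehicle pools. The pools numbered 3 gave the widest difference in both arms. Olfr213, in the same cluster, was lower in GFP+ cells of vehicle pools, at -0.81 ± 0.22 (adjusted p = 0.0251), and in odor pools it was at -0.67 ± 0.22 (adjusted p = 0.0602). The vehicle call was lost without vehicle replicate 1, 3 or 4, at adjusted p of 0.129, 0.0882 and 0.07. It was also lost with median centring (limma, adjusted p = 0.0529) and without the pool as a block (0.103).

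On chromosome 1, the cluster of 13 receptors from Olfr433 to Olfr220 spanned the widest range but one. Olfr231 was at 3.65, 5.75, 4.68 and 3.89 in GFP+ cells of odor pools, under background, against 11.45, 11.80, 11.60 and 12.72 in their GFP- cells. Its levels in vehicle pools were 4.45, 5.15, 4.37 and 5.21 in GFP+ cells, against 11.92, 11.54, 11.40 and 11.94 in GFP- cells. The differences were -7.40 ± 0.35 in odor and -6.91 ± 0.35 in vehicle pools (adjusted p = 5.03e-08 in odor and 8.77e-08 in vehicle pools), and -6 in odor and -5.87 in vehicle pools with levels under background set to it. The next gene, Olfr424, was higher in GFP+ cells by 2.90 ± 0.21 in odor and 2.94 ± 0.21 in vehicle pools, and the gap of 10.08 between these neighbours' mean differences was the widest among adjacent receptors.

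Olfr432 and Olfr430 of this cluster were higher in GFP+ cells. Olfr432 was at 7.47, 9.01, 9.31 and 9.20 in GFP+ cells and 4.66, 5.33, 6.35 and 6.50 in GFP- cells of odor pools, and its differences were 3.04 ± 0.18 in odor and 3.20 ± 0.18 in vehicle pools, or 2.67 in odor and 2.57 in vehicle pools with levels under background set to it. Olfr430 was at 11.75, 10.57, 10.52 and 11.77 in GFP+ cells and 6.21, 8.15, 9.34 and 9.19 in GFP- cells of vehicle pools, with no overlap, and its differences were 3.18 ± 0.51 in odor pools and 2.93 ± 0.51 in vehicle pools. In the cluster Olfr1408 to Olfr418, Olfr1406 was at 5.42, 7.61, 8.27 and 7.37 in GFP+ cells and 12.80, 13.26, 12.59 and 13.95 in GFP- cells of odor pools, with differences of -5.98 ± 0.40 in odor and -5.96 ± 0.40 in vehicle pools. The highest of that cluster was Olfr418, at 1.32 ± 0.26 in odor and 1.38 ± 0.26 in vehicle pools.

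All 8 receptors of the remaining chromosome 1 cluster, Olfr1416 to Olfr12, had a mean difference above 0, between 0.46 and 2.01, and 4 of them were higher in both arms. Olfr1410 was at 12.16, 11.13, 10.66 and 11.62 in GFP+ cells and 9.56, 9.72, 8.22 and 9.49 in GFP- cells of odor pools, with differences of 2.15 ± 0.24 in odor and 1.87 ± 0.24 in vehicle pools (adjusted p = 5.08e-05 in odor and 0.000153 in vehicle pools). The lowest was Olfr1413, at 0.39 ± 0.15 in odor and 0.53 ± 0.15 in vehicle pools (adjusted p = 0.0889 in odor and 0.0241 in vehicle pools). Its levels lay under background in all 4 groups, so that its call in vehicle pools rests on values the array does not separate from background, and with those set to background its difference was -0.01.

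On chromosome 4, the cluster of 13 receptors from Olfr62 to Olfr1328 had 9 members higher and 0 lower in both arms, with a median of 1.30. Olfr1340 was at 7.04, 8.23, 8.09 and 8.23 in GFP+ cells and 4.83, 5.26, 5.21 and 5.23 in GFP- cells of odor pools, and at 8.29, 8.83, 8.85 and 8.32 in GFP+ cells and 4.76, 4.99, 6.46 and 5.38 in GFP- cells of vehicle pools. Its fractions did not overlap, and the differences were 2.76 ± 0.23 in odor and 3.18 ± 0.23 in vehicle pools (adjusted p = 3.84e-06 in odor and 1.29e-06 in vehicle pools), or 2.09 in odor and 2.52 in vehicle pools with levels under background set to it. Olfr1341, the lowest of this cluster, was at -0.62 ± 0.18 in odor and -0.42 ± 0.18 in vehicle pools (adjusted p = 0.0363 in odor and 0.137 in vehicle pools). Its call in odor pools was lost without any of odor replicates 1, 3 and 4 or vehicle replicate 2, at adjusted p of 0.124, 0.0668, 0.168 and 0.0508. It was also lost with median centring (limma, adjusted p = 0.101), quantile normalization (0.0631) and without the pool as a block (0.25).

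The other chromosome 4 clusters held receptors of both signs. In Olfr70 to Olfr155, with 6 members, 1 was higher and 3 were lower in both arms. Of the 3, Olfr159 lay under background in all 4 groups, and with its levels set to background its differences were 0.08 in odor and -0.01 in vehicle pools. Olfr157 was at 5.81, 5.53, 6.06 and 5.34 in GFP+ cells and 8.93, 9.27, 8.78 and 8.90 in GFP- cells of odor pools, and its differences were -3.29 ± 0.18 in odor and -4.04 ± 0.18 in vehicle pools, or -3.01 in odor and -3.28 in vehicle pools with levels under background set to it. Olfr70 was higher by 1.27 ± 0.40 in odor and 1.45 ± 0.40 in vehicle pools (adjusted p = 0.0455 in odor and 0.0241 in vehicle pools), and its call in odor pools was lost without any single odor replicate (adjusted p 0.0683 to 0.188) and without vehicle replicate 2 or 4 (0.0637 and 0.0601). The odor call was also lost with levels under background set to it (limma, adjusted p = 0.0663). The call of Olfr70 in vehicle pools was lost without vehicle replicate 1, 2 or 4, at 0.127, 0.08 and 0.0962. In Olfr273 to Olfr270, with 3 members, Olfr273 was higher by 1.91 ± 0.24 in odor and 1.15 ± 0.24 in vehicle pools while Olfr270 was lower, at -3.12 ± 0.34 in odor and -3.76 ± 0.34 in vehicle pools. Olfr267, which had no other receptor near it, was higher by 1.80 ± 0.19 in odor and 2.16 ± 0.19 in vehicle pools.

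The 9 receptors of chromosome 15, Olfr288 to Olfr279, formed a single cluster with 4 higher and 1 lower in both arms. Olfr281 was at 13.95, 14.29, 13.99 and 13.48 in GFP+ cells of odor pools, against 9.82, 11.26, 9.77 and 8.49 in their GFP- cells. The vehicle pools had 14.26, 14.04, 13.75 and 13.98 in GFP+ cells, against 8.85, 10.39, 10.51 and 9.90 in GFP- cells. The difference was 4.09 ± 0.34 in odor pools and 4.09 ± 0.34 in vehicle pools (adjusted p = 4.64e-06 in odor and 4.7e-06 in vehicle pools). Olfr284 was lower, at -2.43 ± 0.13 in odor and -2.18 ± 0.13 in vehicle pools. Its GFP+ means lay under background, and with such levels set to it the differences were -1.41 in odor and -1.45 in vehicle pools.

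Olfr288 and Olfr287, whose windows are printed above with their shared CCCCAGGG, were higher in GFP+ cells and moved together between pools. Olfr288 was at 8.53, 8.80, 9.17 and 8.35 in GFP+ cells and 7.11, 7.59, 5.73 and 6.98 in GFP- cells of odor pools, and at 8.38, 8.57, 10.81 and 9.96 in GFP+ cells and 6.73, 7.23, 7.86 and 7.63 in GFP- cells of vehicle pools. Olfr287 was at 9.95, 10.24, 10.45 and 9.70 in GFP+ cells and 8.32, 8.16, 7.13 and 8.34 in GFP- cells of odor pools, and at 9.95, 10.21, 12.02 and 10.97 in GFP+ cells and 7.87, 7.51, 9.04 and 8.84 in GFP- cells of vehicle pools. Both were lowest in the GFP- sample of odor replicate 3 and highest in the GFP+ sample of vehicle replicate 3, and their deviations from the group means correlated at 0.90 over the 16 arrays. The differences were 1.86 ± 0.35 in odor and 2.07 ± 0.35 in vehicle pools for Olfr288 and 2.09 ± 0.28 in odor and 2.47 ± 0.28 in vehicle pools for Olfr287, all past the threshold. Whether their probes tell these genes apart was not tested.

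On chromosome 13, the cluster Olfr1367 to Olfr1359 had 8 members, of which 4 were higher and 1 was lower in both arms. Olfr1362 was the highest, at 2.11 ± 0.30 in odor and 2.18 ± 0.30 in vehicle pools. Olfr11 was at 8.90, 9.33, 9.12 and 8.91 in GFP+ cells and 12.25, 12.97, 12.22 and 12.08 in GFP- cells of odor pools, without overlap, and its differences were -3.31 ± 0.15 in odor and -3.74 ± 0.15 in vehicle pools (adjusted p = 3.8e-08 in odor and 1.67e-08 in vehicle pools). In Olfr1370 to Olfr1368, with 3 members, Olfr263 was lower in both arms, at -1.32 ± 0.20 in odor and -0.83 ± 0.20 in vehicle pools, and its call in vehicle pools was lost without vehicle replicate 1, at an adjusted p of 0.0671. Olfr1368 was higher in vehicle pools, at 0.65 ± 0.15, a call lost without vehicle replicate 2 (adjusted p = 0.0693), and was at 0.39 ± 0.15 in odor pools (adjusted p = 0.102). Without the pool as a block both vehicle calls were lost as well (limma, adjusted p = 0.115 for Olfr263 and 0.0523 for Olfr1368).

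Olfr466, which had no other receptor near it on chromosome 13, was higher in GFP+ cells by 3.28 ± 0.19 in odor and 2.24 ± 0.19 in vehicle pools. On chromosome 8, Olfr373 was at 9.40, 10.18, 9.44 and 10.25 in GFP+ cells and 6.38, 7.08, 7.49 and 7.61 in GFP- cells of odor pools, while the adjacent Olfr374 was at 5.56, 5.51, 5.51 and 5.49 in GFP+ cells and 9.89, 9.72, 9.42 and 9.83 in GFP- cells. Their differences had opposite signs, with Olfr373 at 2.68 ± 0.27 in odor and 3.10 ± 0.27 in vehicle pools and Olfr374 at -4.20 ± 0.16 in odor and -3.66 ± 0.16 in vehicle pools, all past the threshold. The GFP+ means of Olfr374 lay under background, and with such levels set to it its differences were -3.82 in odor and -3.49 in vehicle pools. Olfr370 was lower as well, at -1.33 in odor and -1.11 in vehicle pools. Olfr371 was at -1.36 in odor and -1.41 in vehicle pools, but its levels lay under background in all 4 groups, and with those set to background the differences were 0.08 in odor and -0.01 in vehicle pools. On chromosome 3, Olfr266 was lower, at -4.32 ± 0.22 in odor and -4.22 ± 0.22 in vehicle pools, or -3.35 in odor and -3.59 in vehicle pools with its GFP+ levels, which lay under background, set to it.

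The chromosome X cluster Olfr1320 to Olfr1324 had 5 members, of which 2 were higher and 2 lower in both arms. Olfr1322 was at 6.07, 7.88, 6.71 and 7.01 in GFP+ cells of odor pools, against 12.61, 12.52, 12.52 and 12.64 in their GFP- cells. The differences were -5.65 ± 0.44 in odor and -6.12 ± 0.44 in vehicle pools (adjusted p = 2.53e-06 in odor and 1.41e-06 in vehicle pools). Its neighbour Olfr1323 was higher in GFP+ cells by 1.69 ± 0.28 in odor and 1.99 ± 0.28 in vehicle pools, and Olfr1324 by 2.18 ± 0.27 in odor and 2.51 ± 0.27 in vehicle pools.

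Position in the genome was set against the difference between fractions for all adjacent receptors. Over the 114 adjacent pairs of one cluster the median gap between mean differences was 1.12, and 25.4% of pairs lay over 3 apart. Over the 9063 pairs of receptors from different clusters the median gap was 2.00, and 33.9% lay over 3 apart. These are descriptions, since receptors of a cluster share arrays and may share sequence. Levels of neighbours also deviated together between pools. Among the 128 receptors not under background in all groups, the correlation of deviations from the group means over the 16 arrays had a median of 0.327 for 93 adjacent pairs of one cluster, against 0.105 for 7461 pairs from different clusters. The arrays, their background and any sequence shared by their probes are common to these pairs.

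Olfr446, Olfr727, Olfr722 and Olfr419 lay far above background in every sample, and of these Olfr446 and Olfr727 alone passed the test. Olfr446 was at 13.96, 14.22, 14.22 and 14.46 in GFP+ cells and 13.55, 13.77, 13.57 and 13.84 in GFP- cells of odor pools, with differences of 0.53 ± 0.12 in odor and 0.82 ± 0.12 in vehicle pools (adjusted p = 0.00888 in odor and 0.000422 in vehicle pools). Olfr727 was higher by 2.47 ± 0.21 in odor and 2.12 ± 0.21 in vehicle pools. Olfr722 was at 13.55, 14.02, 13.43 and 13.38 in GFP+ cells and 13.93, 13.56, 13.04 and 13.68 in GFP- cells of odor pools, so its fractions overlapped, and it passed the test in neither arm (adjusted p = 0.911 in odor and 0.995 in vehicle pools). Olfr419 did not pass either, at 0.43 ± 0.25 in odor and 0.12 ± 0.25 in vehicle pools.

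The plot of both arms sets the difference between fractions in odor pools against that in vehicle pools. Over the 141 receptors these correlated at r = 0.988 and rho = 0.98, as a description over genes measured on the same arrays. The arms share no samples. The median absolute gap between the arms was 0.25, and 119 of the 141 receptors lay within 0.5 of each other.

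**Figure D3:**
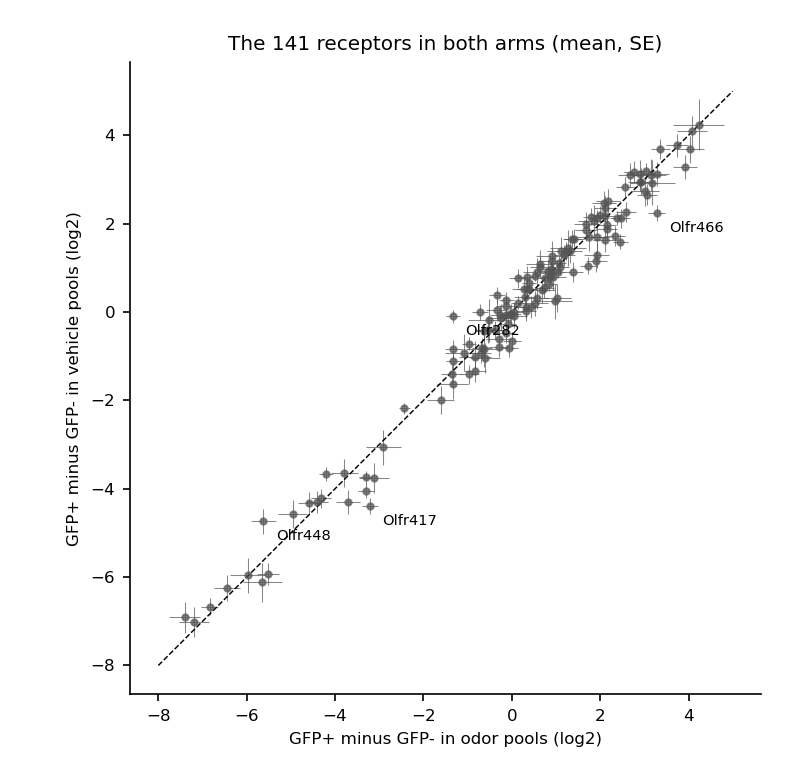
Difference of log2 level, GFP+ minus GFP-, in odor pools (horizontal axis) and in vehicle pools (vertical axis) for each of the 141 receptors, with a dashed line of equal values. Each point is the mean of 4 pools per arm, and bars are SE from a moderated variance that both arms share. Points lie along the line over the range from -7.40 to 4.24, and the widest gap between the arms is that of Olfr282, which is 1.23 lower in odor pools.

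The assay asks which receptors gain GFP+ neurons on odor exposure, so odor and vehicle were compared directly. None of the 141 receptors passed the threshold in any of 3 comparisons with limma. In the difference of enrichment, odor minus vehicle, 0 were higher and 0 lower, as for all genes (0% each), and 13 of the 141 had an unadjusted p under 0.05, against 3.35% of all genes. In GFP+ cells 0 were higher and 0 lower (0% each), and 13 had an unadjusted p under 0.05, against 5.49% of all genes. In GFP- cells 0 were higher, against 0% of all genes, 0 lower, against 0.00513% of all genes, and 7 had an unadjusted p under 0.05, against 3.57%. The enrichment difference ran from -1.23 to 1.18 with a median of -0.03, against a median of 0.09 over the other 939 receptors. The differences in GFP+ cells ran from -0.82 to 0.61 and those in GFP- cells from -1.08 to 0.82.

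Of the 13 receptors with an unadjusted p under 0.05 in GFP+ cells, 10 were lower and 3 higher in odor pools. Of the 13 with such a p in the enrichment difference, chosen separately, 8 were higher and 5 lower. Over the other receptors these counts were 50 higher and 14 lower in GFP+ cells and 48 higher and 13 lower in the enrichment difference. The difference between the receptor sets was not tested.

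Olfr282 had within-pool differences of -1.34, -1.30, -1.62 and -1.06 in odor pools, against 0.32, -0.43, -0.04 and -0.25 in vehicle pools. Every odor pool was below every vehicle pool, and the difference was -1.23 ± 0.22 (adjusted p = 0.947). Its levels lay under background in all 4 groups, and with levels under background set to it the difference was 0.09. Olfr417 had within-pool differences of -3.19, -3.24, -3.70 and -2.71 in odor pools, against -3.81, -4.70, -4.67 and -4.38 in vehicle pools. No odor pool overlapped a vehicle pool, and the difference was 1.18 ± 0.27 (limma, adjusted p = 1). Olfr466 had within-pool differences of 3.63, 3.17, 3.04 and 3.28 in odor pools, against 2.69, 2.46, 2.32 and 1.48 in vehicle pools, again without overlap. The difference was 1.04 ± 0.27 (limma, adjusted p = 1).

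For Olfr466 the odor mean was above the vehicle mean in GFP+ cells and below it in GFP- cells, with neither difference past the threshold. It was at 12.18, 11.17, 11.93 and 11.99 in GFP+ cells of odor pools, against 11.45, 11.63, 11.62 and 11.10 in those of vehicle pools, and at 8.55, 8, 8.89 and 8.70 in GFP- cells of odor pools, against 8.75, 9.17, 9.30 and 9.63 in those of vehicle pools. The arms overlapped in both fractions, and the differences were 0.37 ± 0.22 in GFP+ cells and -0.68 ± 0.24 in GFP- cells (adjusted p = 0.927 and 1). Olfr417 was at 9.96, 10.10, 8.80 and 10.36 in GFP- cells of odor pools, against 10.65, 10.62, 10.31 and 10.67 in those of vehicle pools, with a difference of -0.76 ± 0.30. Olfr1339 of the chromosome 4 cluster had the third smallest p on the higher side of the enrichment difference, at 0.85 ± 0.24, with 0.50 ± 0.18 in GFP+ cells. On the lower side Olfr1535 was at -0.72 ± 0.25, with all group means under background, and Olfr1370 at -0.71 ± 0.26. None of these passed the correction.

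In GFP+ cells the smallest p on the higher side belonged to Olfr157, Olfr1339 and Olfr746. Olfr157 was at 5.81, 5.53, 6.06 and 5.34 in odor pools, against 5.10, 4.82, 4.94 and 5.44 in vehicle pools. The arms overlapped in 1 sample of each, the means lay under background, and the difference was 0.61 ± 0.19 (adjusted p = 0.891). Olfr746 was at 0.51 ± 0.21, also under background. With levels under background set to it these differences were 0.13 for Olfr157 and 0.06 for Olfr746. On the lower side Olfr726 was at 13.94, 13.70, 13.74 and 13.17 in odor pools, against 13.92, 14.53, 15.01 and 14.13 in vehicle pools, with an overlap of 1 sample each and a difference of -0.76 ± 0.24 (adjusted p = 0.891). Olfr740, next to Olfr741 in the chromosome 14 cluster, was at 11.61, 11.40, 11.70 and 11.52 in odor pools, against 12, 11.74, 12.72 and 12.18 in vehicle pools. Every odor sample was below every vehicle sample, and the difference was -0.60 ± 0.20 (adjusted p = 0.891). Olfr448 was at -0.78 ± 0.28 (adjusted p = 0.891).

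In GFP- cells Olfr156 was at 9.53, 9.68, 8.83 and 8.94 in odor pools, against 10.16, 9.68, 10.56 and 10.26 in vehicle pools. The lowest vehicle sample met the highest odor sample at 9.68, and the difference was -0.92 ± 0.25 (adjusted p = 1). On the higher side Olfr282 was at 0.82 ± 0.22, under background, Olfr450 at 0.68 ± 0.22 and Olfr38 at 0.47 ± 0.25, none past the correction. The vehicle mean of Olfr38 lay under background, and with levels under background set to it the difference was 0.06.

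Few receptors had odor and vehicle pools without overlap. In the enrichment difference 3 receptors had every odor pool above every vehicle pool (2.13%, against 1.13% of all genes), namely Olfr417, Olfr466 and Olfr157, and 2 had every odor pool below (1.42%, against 0.892%), namely Olfr282 and Olfr446. The GFP+ means of Olfr157 lay under background, and its enrichment difference of 0.75 came to 0.27 with levels under background set to it. In GFP+ cells 0 receptors lay above (against 1.74%) and 2 below (1.42%, against 1.47%), namely Olfr740 and Olfr1340. In GFP- cells 2 lay above (1.42%, against 1.37%), namely Olfr732 and Olfr282, and 0 below (against 1.11%).

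**Figure D4:**
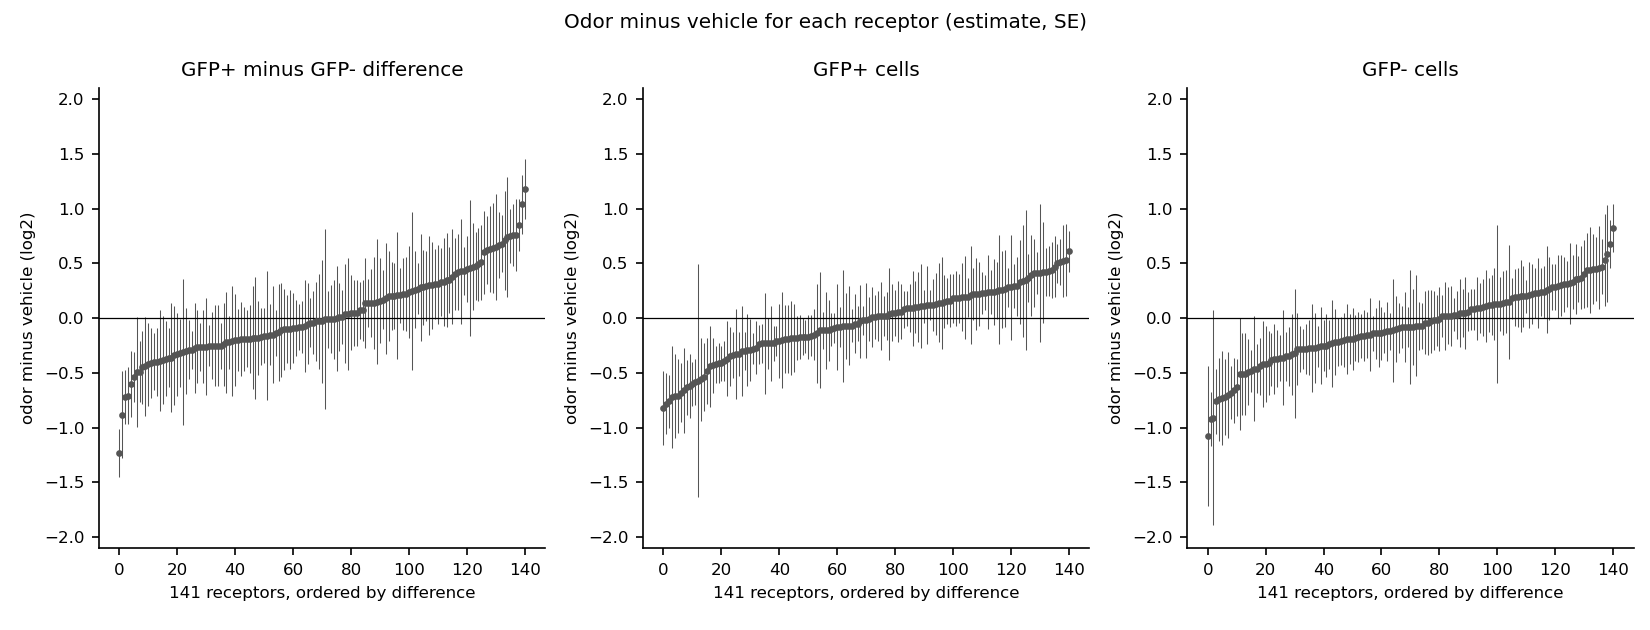
Odor minus vehicle on the log2 scale for each of the 141 receptors, ordered by size, in the difference of enrichment, in GFP+ cells and in GFP- cells, with points as estimates and bars as SE. The points lie between -1.23 and 1.18, and none passed the adjusted threshold.

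Genes that act with the receptors were also compared between the fractions. Of 23 genes of signal transduction, receptor transport and receptor choice, 0 were lower in GFP+ cells in both arms, against 9.26% of all genes. Higher in both arms was 1 of the 23 (4.35%, against 4.73% of all genes). That gene was Ano2, the calcium-activated chloride channel that amplifies the receptor current, at 0.44 ± 0.12 in odor pools (adjusted p = 0.0267) and 0.38 ± 0.12 in vehicle pools (adjusted p = 0.0494). Gnal was at 0.16 ± 0.13 in odor and 0.28 ± 0.13 in vehicle pools, Adcy3 at 0.14 ± 0.13 in odor and 0.29 ± 0.13 in vehicle pools, and the receptor transport protein gene Rtp1 at 0.17 ± 0.13 in odor and 0.10 ± 0.13 in vehicle pools. The medians over the list were 0.16 in odor and 0.23 in vehicle pools, and 0 of the 23 passed the test of odor against vehicle in any comparison. Stoml3 was at 19.35 ± 0.00 in odor and 19.34 ± 0.01 in vehicle pools in GFP+ cells, and Omp at 18.50 ± 0.01 in odor and 18.48 ± 0.02 in vehicle pools (SD, n = 4 each), near the top of the array's range, where a difference may not be measurable, and Cngb1 lay under background in all 4 groups. The reporter's own gene S100a5 exceeded its GFP- level by 1.31 ± 0.17 in GFP+ cells of odor pools and by 1.27 ± 0.17 in those of vehicle pools.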

How the data were processed

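RNA of 16 samples, the GFP+ and GFP- cells of 8 pools, was measured on Clariom S arrays. Per the labels, the authors made the deposited values, taken as log2 levels, with Affymetrix Expression Console in a version that no source used here states. The base of the log was inferred, since the values span about 2 to 19 on every array, and the sources used here do not state the background correction, normalization or genome build. Of 28846 probes, 19572 had 1 gene symbol in the platform annotation. Where several probes shared a gene (55 genes), the one with the highest mean was kept, leaving 19505 genes.

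Pools were numbered from the code in the titles. Both V4 and V5 of the vehicle pools are titled replicate 3, and V5 is called replicate 4 here. Tests used limma 3.58.1 in R 4.3.3 on all genes, and p-values were two-sided and Benjamini-Hochberg adjusted at a threshold of 0.05. Enrichment was fitted to the 8 within-pool differences, with a moderated variance that both arms share, and odor was compared with vehicle in 8 GFP+ and in 8 GFP- samples. Deviations of same-numbered odor and vehicle samples from their group means correlated at 0.114 to 0.242 in GFP+ and 0.066 to 0.332 in GFP- cells. Samples of different numbers were not compared, so whether the numbers pair the samples was not tested. Within a pool the fractions correlated at 0.109 to 0.249.

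Named receptors were the 10 with the largest and the 10 with the most negative mean enrichment past the threshold in both arms and with 1 sign in all 8 pools, the 6 of highest mean level, the highest and lowest of each cluster of 3 or more, and the 3 smallest p in each direction of odor against vehicle. Others, among them Olfr724, Olfr725, Olfr287, Olfr288, Olfr373 and Olfr374, were chosen after their values were seen. The members and lists were chosen with earlier results of these data known. The tests were tried on simulated data. Alternatives were median centring, quantile normalization, a floor at background, leaving out dim genes, eBayes with trend and robust, the replicate block and leaving out each pool. Protein sequences were not used here, so a planned comparison of close relatives was not run, and cross-hybridisation between similar receptors was not tested.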

Additional observations from a re-analysis of the deposited data

Results flagged for a closer look

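In 13 of 212 group levels of the named receptors (6.13%), 1 sample of 4 lay far from the other 3, its gap taking more of the group's range than Dixon's 95% critical value. Chance flags about 1 in 20 groups. In the GFP- sample of odor replicate 3, which also lay apart on the second principal component, this held for Olfr742 at 6.16 against 7.57 to 7.61 in the other samples, Olfr741 at 10.75 against 12.50 to 12.71, Olfr1410 at 8.22 against 9.49 to 9.72 and Olfr284 at 6.83 against 7.44 to 7.49. In the GFP+ sample of odor replicate 1 it held for Olfr745 at 12.95 against 13.85 to 13.97, Olfr432 at 7.47 against 9.01 to 9.31 and Olfr1340 at 7.04 against 8.09 to 8.23, and in its GFP- sample for Olfr1340 at 4.83 against 5.21 to 5.26. Olfr273 was at 13.05 in GFP+ cells of odor replicate 2, against 13.37 to 13.39 in the others. Olfr460 was at 12.79 in GFP- cells of odor replicate 4, against 13.62 to 13.77. Among vehicle samples, Olfr728 was at 7.05 in GFP+ cells of replicate 1, against 5.64 to 5.86, while in GFP- cells of replicate 3 Olfr1406 was at 12.31, against 13 to 13.09, and Olfr417 at 10.31, against 10.62 to 10.67. The causes were not tested.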

How the results depend on the processing

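The count of receptors higher in GFP+ cells of odor pools was 62 and ran from 59 to 71 over the other settings and from 56 to 63 with any pool left out. The count of lower ones was 32, from 29 to 33 and from 28 to 33. In vehicle pools the higher count was 68, from 63 to 73 and from 55 to 68, the low of 55 without vehicle replicate 2, and the lower count was 34, from 30 to 34 and from 30 to 36. Median centring moved the median enrichment of all genes to 0.338 in odor and 0.259 in vehicle pools, and that of the 141 receptors to 0.75 and 0.68. No receptor passed in the comparisons of odor with vehicle under any setting run or with any pool left out. With the replicate block 0 receptors passed in GFP+ cells and 0 in GFP- cells, as without it, and it changed no other call. Without the pool as a block (no replicate block), 59 receptors were higher and 30 lower in odor pools and 63 were higher and 31 lower in vehicle pools.

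Of the named values, 11 changed sign. Olfr722 in odor pools went to -0.01 with quantile normalization and to -0.09 and -0.07 without odor replicates 2 and 3, and in vehicle pools to 0.15 with median centring and to 0.19 and 0.09 without vehicle replicates 1 and 4, within a range of -0.20 to 0.19 over the pools left out. Olfr419 in vehicle pools was at -0.12 without vehicle replicate 1 and at up to 0.36 with other pools left out. With the floor at background, Olfr1413 in vehicle pools was at -0.01, the enrichment differences of Olfr282 and Olfr1535 were both 0.09, and Olfr282 in GFP- cells was at -0.04, since levels at the floor carry no difference. The other causes were not tested. A further 33 values lost their call and 6 gained one, while 1372 kept both. With fewer than 5 genes between neighbours there were 31 clusters, 14 of 3 or more. Against the 95th percentile of the background probes, 104 to 111 of the 141 receptors lay above background per group, against 118 to 120 over the median. The comparison of close relatives by protein identity, and the setting without them, were not run.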

Other observations

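Some receptors of a cluster deviated from their group means together over the 16 arrays beyond those given above. Among the 128 receptors not under background in every group, Olfr1411 and Olfr12 on chromosome 1 correlated at 0.893, Olfr725 and Olfr729 on chromosome 14 at 0.888, Olfr722 and Olfr733 at 0.874, Olfr71 and Olfr156 on chromosome 4 at 0.838 and Olfr448 and Olfr237 on chromosome 6 at 0.833. These were the highest values of 667 pairs within clusters and were picked for that, and the median of the 667 pairs was 0.131. By cluster the median pair was 0.474 for Olfr1408 to Olfr418 on chromosome 1, 0.46 for Olfr70 to Olfr155 on chromosome 4, 0.11 for Olfr722 to Olfr749 on chromosome 14 and -0.055 for Olfr1320 to Olfr1324 on chromosome X. The arrays and their background are common to each pair, and no test was made.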
